A study of Mus musculus with 4 samples.

Results

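The Rab GTPases are 57 of the 28095 gene names that the non-control probes of the arrays carry, and they were chosen by name alone: Rab, a number and at most a further letter and number. They were read by 112 of 41174 probes (121 of 43379 spots). Expression was measured in sorted thymocytes at the stage that carries both CD4 and CD8 (DP thymocytes), with 2 arrays of USP8ff_CD4Cre mice and 2 arrays of USP8ff mice. Both groups carried loxP-flanked Usp8 alleles (USP8ff). The USP8ff_CD4Cre mice also carried Cre under Cd4 regulatory sequences, which act from the DP stage onward, and the USP8ff mice carried no Cre. The mice were untreated, aged 6 to 12 weeks and sex-matched littermates, per the labels. Each sample pooled 2 mice, 8 mice in all, so the p-values measure the spread between 2 pools per group. No group had Cre without the loxP-flanked alleles, so Cre itself and the deletion cannot be told apart.

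Rab proteins are small GTPases that switch between a GTP-bound form on a membrane and a GDP-bound form held in the cytosol. Each marks certain membranes: Rab5 proteins mark early endosomes, Rab4 and Rab11 proteins recycling endosomes, Rab9 late endosomes, Rab1, Rab2 and Rab6 proteins the route between endoplasmic reticulum (ER) and Golgi, and Rab3, Rab8 and Rab27 proteins vesicles bound for the cell surface. USP8 is a deubiquitinase that acts on ubiquitin-marked receptors at early endosomes, where the choice between recycling and lysosomal sorting is made. The comparison below asks whether transcripts of the machinery that defines these compartments differed between the genotypes. The Rab genes were placed in 6 classes by the main compartment of their protein, and the class of a protein with several sites is a simplification.

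Most Rab genes with endosomal or secretory duties were measurable in DP thymocytes. A probe was kept when both arrays of a genotype, or all 4, read it well above background. Of the 112 Rab probes 70 were kept, for 38 of the 57 Rab genes. Over the whole array 46.2% of probes were kept, for 13062 of 28482 genes (names updated through RefSeq). The other Rabs below were near that share. Early endosome Rabs were kept for 6 of 7 genes, ER and Golgi Rabs for 9 of 11, recycling endosome Rabs for 7 of 11, secretory granule and exocytosis Rabs for 7 of 10, late endosome and lysosome Rabs for 4 of 7, and other Rabs for 5 of 11. On single arrays 70 and 76 Rab probes were well above background in USP8ff_CD4Cre, and 70 and 69 in USP8ff. Signals of different probes depend on the probe, so levels were not ranked between genes or classes. The share of genes kept describes detection and not level.

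The 19 Rab genes without a kept probe included members best known from other cell types. Among the recycling endosome Rabs they were Rab13, which serves epithelial junctions, Rab17 and Rab25, which serve recycling in polarised epithelia, and Rab15. Among the secretory Rabs they were Rab3c, a synaptic vesicle Rab, Rab26 and Rab27b. Rab38, which serves pigment granules, and Rab34 and Rab9b were those of the late endosome and lysosome, and Rab31 was that of the early endosome. In the ER and Golgi class they were Rab30 and Rab6b, and among the other Rabs they were Rab36, Rab39, Rab39b, Rab40b, Rab42 and Rab44. Of the 112 Rab probes, 35 were well above background on no array. Rab7, the main late endosome Rab, was matched by no probe under the naming rule and is not analysed here.

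Rab6b, the Golgi Rab known chiefly from neurons, stood apart among the genes that were not kept, because both of its probes were bright on 1 USP8ff array alone. The first 30 of 60 bases of each probe are shown because these are the sequences that read that signal. They are printed in lower case, 5′ to 3′, and lie on the plus strand of mm9 at chr9:103087539-103087598 and chr9:103085201-103085260.
Rab6b A_52_P11441: ctgtgtaatatgtggaaaagactcagcatg
Rab6b A_51_P276418: ctcctccagaaggcaaggaccaatgtacga
Probe A_52_P11441 had processed intensities of 8.38 and 38.2 in USP8ff_CD4Cre pools, against 1696 and 8.19 in USP8ff pools. Probe A_51_P276418 had processed intensities of 14.5 and 19.3 in USP8ff_CD4Cre pools, against 490 and 7.20 in USP8ff pools. Both probes were thus high in USP8ff replicate 1 and low on the other 3 arrays, with 1 reading of A_52_P11441 in USP8ff_CD4Cre replicate 2 also well above background. On the log2 scale, set against the array's own 75th percentile, replicate 1 exceeded the next array by 5.40 (42.1-fold) for A_52_P11441 and by 4.59 (24.1-fold) for A_51_P276418. These were the largest and the second largest such excess of any probe on that array. An excess of over 2 on the log2 scale on 1 array alone was seen for 18 probes on that array, and for 21, 13 and 24 probes on USP8ff_CD4Cre replicate 1, USP8ff_CD4Cre replicate 2 and USP8ff replicate 2. The only Rab probes among them were the 2 of Rab6b. The source of this signal was not tested, and the genotypes were not compared for Rab6b in the fit over all 4 arrays.

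**Figure D1:**
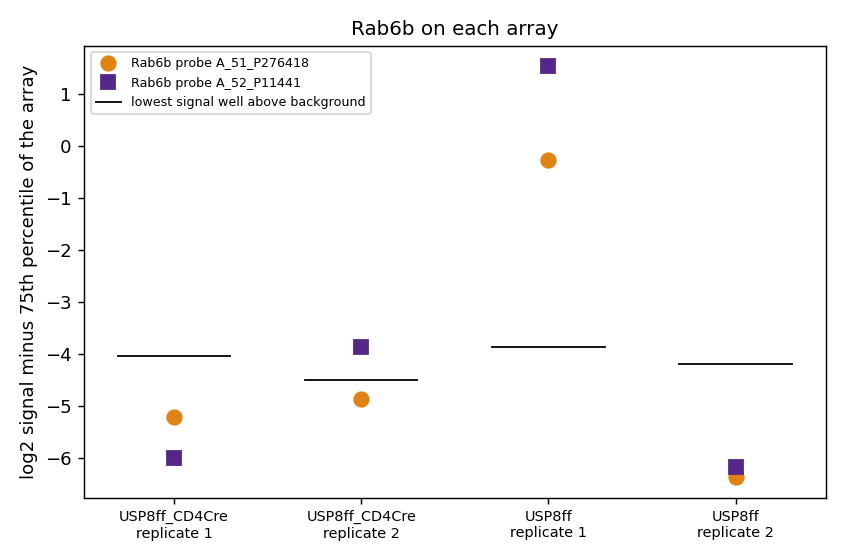
Log2 signal of the 2 Rab6b probes over the array's own 75th percentile (vertical axis) on the 4 arrays (horizontal axis), with the lowest signal well above background on each array as a line. In USP8ff replicate 1 the probes stood at 1.52 and -0.27, and on the other arrays between -6.36 and -3.87.

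In the comparison of genotypes no Rab gene passed the test. Differences below are USP8ff_CD4Cre minus USP8ff on the log2 scale, with the standard error from limma, and signals are log2 values over the 75th percentile of the same array. In sorted bulk samples fewer cells of a type and less RNA per cell cannot be told apart. Of the 38 Rab genes tested, 0 had an adjusted p under 0.05 (Benjamini-Hochberg over 13062 genes), against 0% of all genes, and 0 had an unadjusted p under 0.05, against 7.43% of all genes. The smallest unadjusted p was 0.0832, for Rab1a, and the adjusted p of the Rab genes was 0.697 or higher. The differences ran between -0.26 for Rab19 and 0.23 for Rab1a, with 21 above and 17 below 0 and a median of 0.0095, against a median of 0.021 over all genes tested. The 21 include Rab3b, which was kept through USP8ff_CD4Cre alone and from which no direction is read. Only 7 of 38 Rab genes (18.4%) had pools that did not overlap between the genotypes, against 40.6% of all genes. Higher in both USP8ff_CD4Cre pools were 5 Rab genes (Rab5a, Rab1a, Rab14, Rab11a and Rab27a), against 24.3% of all genes, and lower in both were Rab33b and Rab40c, against 16.3% of all genes. With any 1 array left out, groups of 1 and 2 arrays overlap less easily by construction. The count was then 26 of 42 without USP8ff_CD4Cre replicate 1, 19 of 38 without USP8ff_CD4Cre replicate 2, 25 of 39 without USP8ff replicate 1 and 23 of 39 without USP8ff replicate 2, against 61% to 75.1% of all genes.

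The labels were checked on Usp8 itself. Its log2 signal was -1.03 and -1.23 in USP8ff_CD4Cre pools, against -0.23 and -0.40 in USP8ff pools. Both USP8ff_CD4Cre pools lay below both USP8ff pools, and the difference of -0.81 ± 0.13 left 56.9% of the USP8ff signal, with an adjusted p of 0.597 in limma. The Rab differences were all smaller than this in size.

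**Figure D2:**
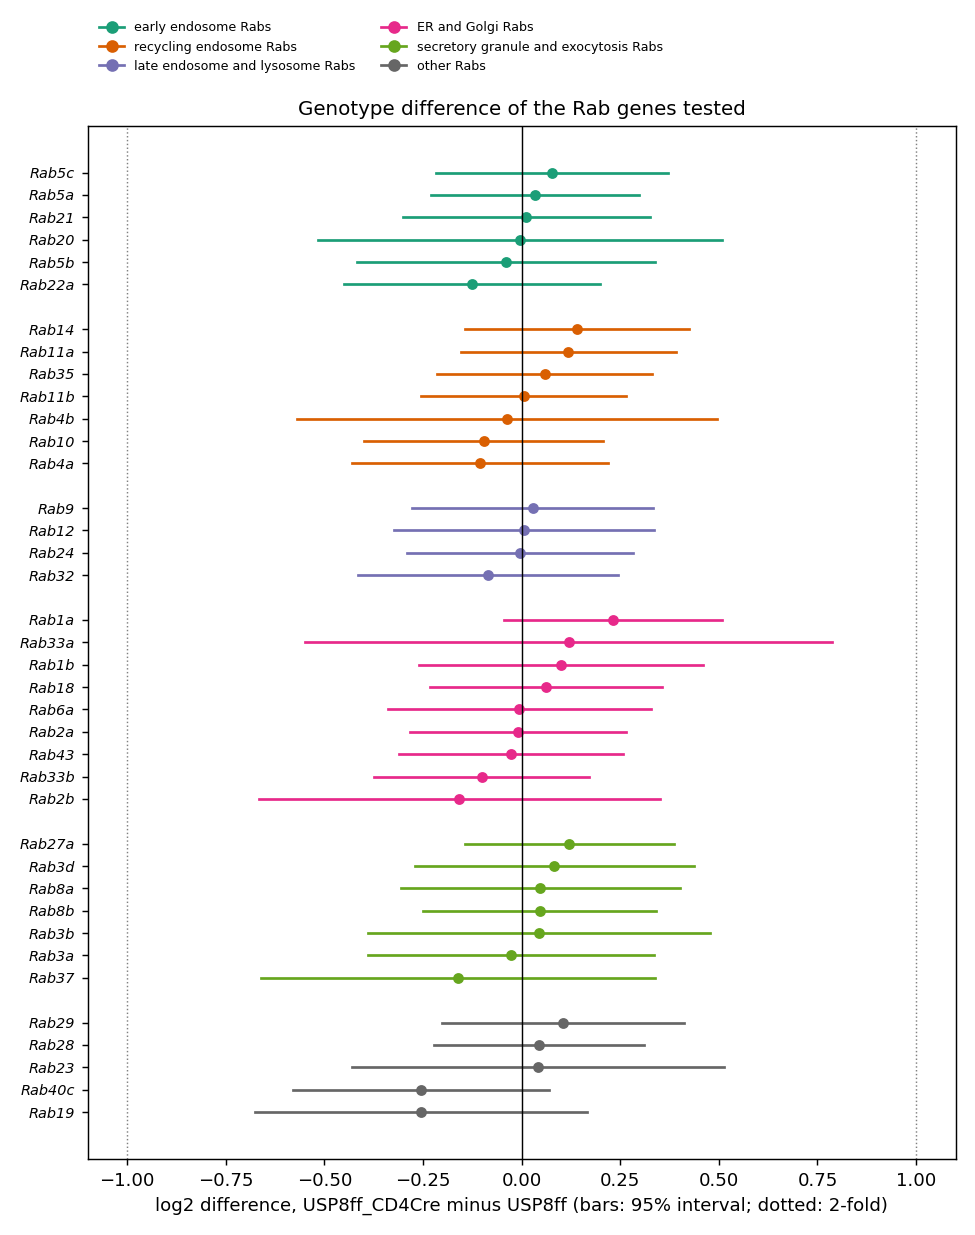
Log2 difference of each of the 38 Rab genes tested, USP8ff_CD4Cre minus USP8ff (horizontal axis), by class (colours), with the 95% interval from limma as bars and a 2-fold difference as dotted lines. All 38 intervals covered 0 and lay within the dotted lines.

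Early endosome Rabs differed little, with 3 of 6 genes above and 3 below 0, a median of 0.0043 and a range of -0.13 to 0.077. Rab22a, which serves early endosomes and the recycling of MHC class I, had log2 signals of 2.01 and 1.78 in USP8ff_CD4Cre pools, against 1.98 and 2.07 in USP8ff pools (mm9, chr2:173530063-173530122). The pools overlapped, since only 1 USP8ff_CD4Cre pool was low, and the difference of -0.13 ± 0.13 had the smallest p of the class (0.364 unadjusted, in limma). Its other 2 kept probes differed by 0.033 and 0.052, with the opposite sign.

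The 3 Rab5 genes, whose proteins drive homotypic fusion of early endosomes and receptor uptake, had differences of both signs. Rab5c had log2 signals of 3.35 and 3.44 in USP8ff_CD4Cre pools, against 3.39 and 3.25 in USP8ff pools (chr11:100576699-100576758). Its groups overlapped, and the difference was 0.077 ± 0.11. Rab5a was read at 3.13 and 3.12 in USP8ff_CD4Cre pools, against 3.06 and 3.12 in USP8ff pools (chr17:53646662-53646721). These pools did not overlap, but 3 of the 4 values lay almost level, and the difference was 0.034 ± 0.10. Its other kept probe differed by -0.068, with the pools again not overlapping and the opposite sign. Rab5b gave -1.48 and -1.76 in USP8ff_CD4Cre pools, against -1.68 and -1.48 in USP8ff pools (chr10:128119584-128119643). The pools crossed, the difference was -0.04 ± 0.15, and its other 2 kept probes differed by -0.064 and 0.17.

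Rab20, known from phagosome maturation in macrophages, had log2 signals of -3.92 and -3.98 in USP8ff_CD4Cre pools, against -3.67 and -4.22 in USP8ff pools (chr8:11454183-11454242), well above background on 2 USP8ff_CD4Cre arrays and 1 USP8ff array. Both USP8ff_CD4Cre pools fell between the USP8ff pools, and the difference was -0.0036 ± 0.20. Rab21, which follows integrins into endosomes, differed by 0.012 ± 0.12 with overlapping pools. Its other kept probe gave -0.13 and -0.13 in USP8ff_CD4Cre pools, against -0.42 and -0.25 in USP8ff pools, with both USP8ff_CD4Cre pools higher and a difference of 0.21 (unadjusted p of 0.136, in limma over every kept probe).

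Among the recycling endosome Rabs 4 of 7 genes lay above and 3 below 0, with a median of 0.0052 and a range of -0.11 to 0.14. Rab14, which connects endosomes and Golgi, had log2 signals of 3.18 and 3.04 in USP8ff_CD4Cre pools, against 2.97 and 2.97 in USP8ff pools (chr2:35037901-35037960). Both USP8ff_CD4Cre pools were higher, by 0.14 ± 0.11, with an unadjusted p of 0.262 in limma. This was not shared by its other 2 kept probes, which differed by 0.016 and -0.16.

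Rab11a, which returns receptors from the recycling endosome to the surface, had log2 signals of 3.83 and 3.88 in USP8ff_CD4Cre pools, against 3.70 and 3.78 in USP8ff pools (chr9:64564484-64564543). The groups did not overlap, and the difference of 0.12 ± 0.11 had an unadjusted p of 0.315 in limma. All 3 kept Rab11a probes lay above 0, at 0.12, 0.14 and 0.033. Its close relative Rab11b gave 4.16 and 4.16 in USP8ff_CD4Cre pools, against 4.16 and 4.15 in USP8ff pools (chr17:33883689-33883748). These values were almost level on all 4 arrays, with a difference of 0.0052 ± 0.10, while the other 2 kept Rab11b probes differed by -0.026 and 0.17.

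Rab10, which serves polarised and insulin-regulated delivery to the surface, was read by 3 kept probes. A pair of them shares 40 bases and reads the same stretch of transcript, and it is shown because the pair and the brightest probe pointed in opposite directions. The capitals mark the shared bases, and the probes lie on the minus strand of mm9 at chr12:3249867-3252667, which spans 2801 bases of genome for 60 bases of probe and so crosses an exon junction, and at chr12:3252628-3252687.
Rab10 A_51_P357858: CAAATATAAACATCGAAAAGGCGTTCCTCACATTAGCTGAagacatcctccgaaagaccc
Rab10 A_52_P262967: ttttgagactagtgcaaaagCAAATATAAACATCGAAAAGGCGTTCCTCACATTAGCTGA
Probe A_51_P357858 had log2 signals of 2.23 and 2.30 in USP8ff_CD4Cre pools, against 2.09 and 2.19 in USP8ff pools. Probe A_52_P262967 gave 1.46 and 1.54 in USP8ff_CD4Cre pools, against 1.25 and 1.49 in USP8ff pools. In the first the groups did not overlap, in the second they did, and both differed by 0.13. The brightest Rab10 probe (chr12:3247758-3247817), which stood for the gene, gave 2.94 and 3.01 in USP8ff_CD4Cre pools, against 2.98 and 3.16 in USP8ff pools. Here the groups overlapped and the difference was -0.096 ± 0.12, so the sign for Rab10 rested on the choice of probe. Probes that share bases do not give independent readings.

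The other recycling endosome Rabs had overlapping pools. Rab35, which returns receptors to the plasma membrane and to the immunological synapse, differed by 0.059 ± 0.11. Rab4a, of the fast recycling route, differed by -0.11 ± 0.13, and its relative Rab4b by -0.037 ± 0.21. Rab4b was wide apart between the USP8ff pools, with log2 signals of 2.0 and 1.80 in USP8ff_CD4Cre pools, against 2.21 and 1.66 in USP8ff pools.

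Late endosome and lysosome Rabs had the narrowest range of the classes, -0.086 to 0.028, with 2 of 4 genes above and 2 below 0 and a median of 0.0018. This rests on only 4 genes. Rab32, which serves lysosome-related organelles, had log2 signals of -0.33 and -0.58 in USP8ff_CD4Cre pools, against -0.34 and -0.41 in USP8ff pools (chr10:10265134-10265193). The groups overlapped, with USP8ff_CD4Cre replicate 2 alone low, and the difference was -0.086 ± 0.13 (unadjusted p of 0.537, in limma). Rab9, of the route between late endosomes and the trans-Golgi network, gave 2.55 and 2.68 in USP8ff_CD4Cre pools, against 2.51 and 2.66 in USP8ff pools (chrX:162895731-162895790). Its groups overlapped fully, and the difference was 0.028 ± 0.12. Rab12, which sends the transferrin receptor to lysosomes, gave 0.58 and 0.34 in USP8ff_CD4Cre pools, against 0.49 and 0.42 in USP8ff pools (chr17:66844642-66844701). Both USP8ff pools fell between the USP8ff_CD4Cre pools, the difference was 0.0066 ± 0.13, and its other 2 kept probes differed by 0.15 and -0.044. Rab24, linked to autophagosomes, differed by -0.003 ± 0.11.

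Rab1a, a Rab of the route from ER to Golgi, had the smallest p of the whole family. Its log2 signals were 3.95 and 4.05 in USP8ff_CD4Cre pools, against 3.80 and 3.73 in USP8ff pools (chr11:20125096-20125155). Both USP8ff_CD4Cre pools lay above both USP8ff pools, and the difference was 0.23 ± 0.11 (1.18-fold), with an unadjusted p of 0.0832 and an adjusted p of 0.697 in limma. A second Rab1a probe, 0.15, had the same sign with overlapping pools. With a prior on the spread that follows the signal level, Rab1a had an unadjusted p of 0.0422, the only Rab gene under 0.05 in that setting. Rab1b, whose protein shares the same route, differed by 0.10 ± 0.14 with overlapping pools, and its 2 kept probes by 0.10 and 0.11.

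The ER and Golgi class as a whole had 4 of 9 genes above and 5 below 0, a median of -0.0055 and a range of -0.16 to 0.23. Rab33b, which links the Golgi to autophagosome formation, had log2 signals of -0.32 and -0.43 in USP8ff_CD4Cre pools, against -0.27 and -0.28 in USP8ff pools (chr3:51299642-51299701). Both USP8ff_CD4Cre pools were lower, with a difference of only -0.10 ± 0.11 (unadjusted p of 0.384, in limma). Rab33a, its relative, had log2 signals of -1.82 and -1.90 in USP8ff_CD4Cre pools, against -1.59 and -2.36 in USP8ff pools, the widest gap between USP8ff pools of any Rab gene tested, and differed by 0.12 ± 0.26. Without USP8ff replicate 1, Rab33a differed by 0.50, a value that rests on USP8ff replicate 2 as the only USP8ff array.

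Rab18, which serves the ER and lipid droplets, had log2 signals of 2.93 and 2.93 in USP8ff_CD4Cre pools, against 2.78 and 2.95 in USP8ff pools. Its groups overlapped, the difference was 0.062 ± 0.11, and its other kept probe differed by -0.098. Rab43, a Golgi Rab, gave -2.80 and -2.69 in USP8ff_CD4Cre pools, against -2.76 and -2.67 in USP8ff pools (chr6:87744623-87744682). The pools of this probe overlapped, with a difference of -0.027 ± 0.11. The other kept probe was well above background on both USP8ff_CD4Cre arrays and on 0 USP8ff arrays, and so was kept through USP8ff_CD4Cre alone. Its pools did not overlap, with a difference of 0.18 ± 0.14 (unadjusted p of 0.253, in limma over every kept probe). No direction is read from that probe. Rab6a, of retrograde traffic through the Golgi, gave 3.80 and 3.99 in USP8ff_CD4Cre pools, against 3.81 and 3.99 in USP8ff pools (chr7:107789641-107789700). The replicates numbered 2 were higher in both genotypes, so the groups overlapped fully with a difference of -0.0055 ± 0.13, and the other kept probe differed by 0.11. Rab2a, of the route between Golgi and ER, differed by -0.0088 ± 0.11, and its other kept probe by -0.049.

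Rab2b, the relative of Rab2a, had the only Rab probe with an unadjusted p under 0.05 when every kept probe was tested on its own. It is shown for that reason, and was chosen after its values were seen. The probe is on the minus strand of mm9 at chr14:52885946-52888345, a span of 2400 bases for 60 bases of probe, so it crosses an exon junction.
Rab2b A_52_P107936: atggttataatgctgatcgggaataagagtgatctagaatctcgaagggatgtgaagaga
Its log2 signals were -2.67 and -2.88 in USP8ff_CD4Cre pools, against -2.21 and -2.49 in USP8ff pools. Both USP8ff_CD4Cre pools lay below both USP8ff pools, and the difference was -0.43 ± 0.15, with an unadjusted p of 0.0345 in limma over 19038 probes. The brighter Rab2b probe (chr14:52881602-52881661), which stood for the gene, gave 1.69 and 1.38 in USP8ff_CD4Cre pools, against 1.92 and 1.46 in USP8ff pools. Here the groups overlapped and the difference was -0.16 ± 0.20, with the same sign. Over all 70 kept Rab probes, 1 had an unadjusted p under 0.05, against 6.67% of all kept probes, and 17 did not overlap between groups, against 38.7% of all kept probes. The 17 include the Rab43 probe kept through USP8ff_CD4Cre alone.

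Secretory granule and exocytosis Rabs had 5 of 7 genes above and 2 below 0, with a median of 0.046 and a range of -0.16 to 0.12. The 5 include Rab3b, which was kept through USP8ff_CD4Cre alone. Rab27a, which docks cytotoxic granules at the membrane and is mutated in human Griscelli syndrome, had log2 signals of 0.71 and 0.72 in USP8ff_CD4Cre pools, against 0.57 and 0.63 in USP8ff pools (chr9:72944668-72944727). Both USP8ff_CD4Cre pools were higher, by 0.12 ± 0.10, with an unadjusted p of 0.295 in limma. The other kept Rab27a probe differed by 0.22 with overlapping pools. The 5 NK and innate T cell markers tested had differences of both signs in the same arrays, at -2.09 for Nkg7, -2.02 for Il2rb, -0.86 for Prf1, 0.42 for Gzma and 0.15 for Tbx21, and the groups overlapped for none of the 5. Their part in the Rab27a value was not tested.

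Rab37, known from mast cell secretion, had log2 signals of -0.55 and -0.89 in USP8ff_CD4Cre pools, against -0.35 and -0.77 in USP8ff pools (chr11:115023290-115023349). The replicates numbered 1 were higher in both genotypes, the groups overlapped, and the difference was -0.16 ± 0.20. Rab8b, of delivery to the cell surface, gave -0.24 and -0.41 in USP8ff_CD4Cre pools, against -0.36 and -0.38 in USP8ff pools (chr9:66692800-66692859). Its groups overlapped, the difference was 0.046 ± 0.12, and its other 2 kept probes differed by 0.21 and -0.078. Rab3b, a Rab of regulated exocytosis, gave -3.75 and -4.11 in USP8ff_CD4Cre pools, against -3.86 and -4.09 in USP8ff pools (chr4:108613609-108613668) and was well above background on both USP8ff_CD4Cre arrays and on 0 USP8ff arrays. The signals overlapped, and the difference was 0.044 ± 0.17, with a 95% interval of -0.39 to 0.48. The gene was kept through USP8ff_CD4Cre alone, and no direction is read from it. Rab8a, Rab3a and Rab3d overlapped too, with differences of 0.048, -0.026 and 0.083, and the other kept probes of Rab8a and Rab3d differed by 0.09 and 0.14.

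The remaining Rab genes held both the lowest differences of the family and little else, with 3 of 5 above and 2 below 0. Rab40c, whose protein carries a SOCS box and joins ubiquitin ligases, had log2 signals of 2.31 and 2.55 in USP8ff_CD4Cre pools, against 2.67 and 2.71 in USP8ff pools (chr17:26019159-26019218). Both USP8ff_CD4Cre pools lay below both USP8ff pools, and the difference of -0.25 ± 0.13 had an unadjusted p of 0.0997 and an adjusted p of 0.697 in limma. Its other kept probe differed by -0.11, with the same sign. Rab19 gave 3.29 and 2.94 in USP8ff_CD4Cre pools, against 3.47 and 3.27 in USP8ff pools (chr6:39340244-39340303). Here the groups overlapped, since USP8ff_CD4Cre replicate 1 lay just above USP8ff replicate 2, and the difference was -0.26 ± 0.16 (unadjusted p of 0.181, in limma).

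Rab23, a regulator of Hedgehog signalling, had log2 signals of -1.02 and -1.48 in USP8ff_CD4Cre pools, against -1.21 and -1.38 in USP8ff pools (chr1:33797459-33797518). The USP8ff pools fell between the USP8ff_CD4Cre pools, with a difference of 0.042 ± 0.18 here and -0.021 for the other kept probe. Rab28, linked to cilia, gave 0.34 and 0.32 in USP8ff_CD4Cre pools, against 0.32 and 0.25 in USP8ff pools (chr5:42016527-42016586). The groups overlapped, with 0.043 ± 0.10 here and -0.062 for the other kept probe. Rab29, a partner of the kinase LRRK2, differed by 0.11 ± 0.12.

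**Figure D3:**
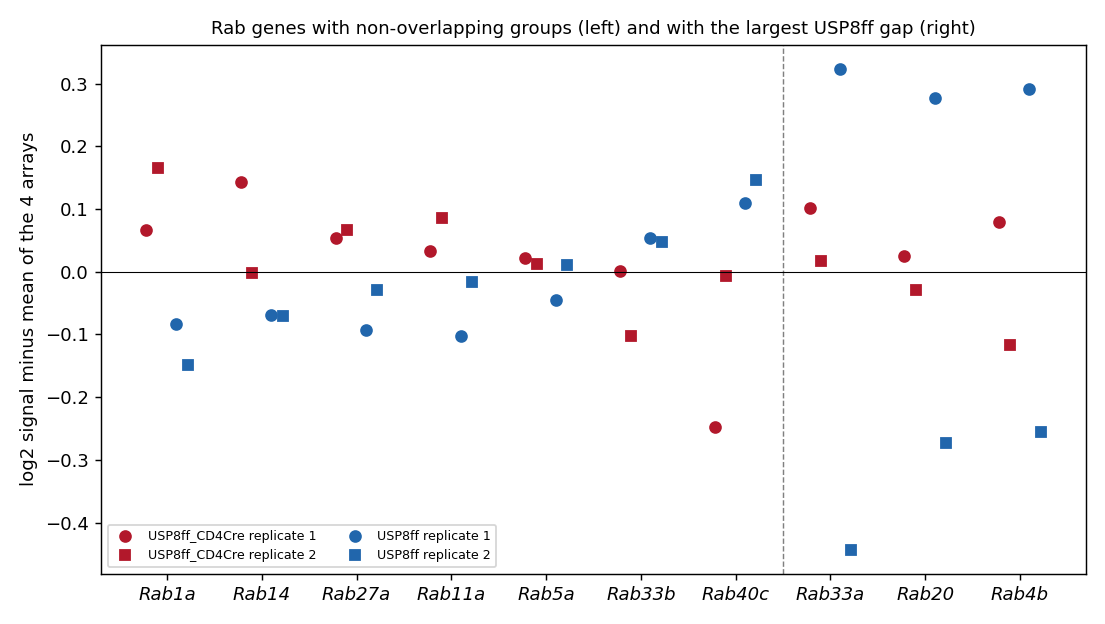
Log2 signal of each array minus the mean of the 4 arrays (vertical axis) for the 7 Rab genes whose groups did not overlap and, right of the dashed line, the 3 with the widest gap between USP8ff pools. Among the 7, Rab1a and Rab40c were farthest apart, at 0.23 and -0.25, while for Rab33a, Rab20 and Rab4b the USP8ff pools enclosed both USP8ff_CD4Cre pools.

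Set side by side, the medians of the endosomal classes lay close to 0, at 0.0043 for early endosome, 0.0052 for recycling and 0.0018 for late endosome and lysosome Rabs. The 2 secretory classes together had 9 of 16 genes above and 7 below 0 and a median of 0.045, against 0.021 over all genes tested. Apart, their medians were -0.0055 for ER and Golgi Rabs and 0.046 for secretory granule and exocytosis Rabs. The 9 above 0 include Rab3b, from which no direction is read, and the joint median rests in part on it. The ranges of all classes overlapped, each included 0, and no test between classes was made. The signs of these medians depended on settings: under quantile normalization the recycling median was -0.066, and with normexp background the ER and Golgi median was 0.053.

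Rab differences were small beside the spread between pools and beside those of other genes. The median absolute difference was 0.060 for the 38 Rab genes and 0.12 for all genes tested. For 34 of 38 Rab genes (89.5%) the difference was smaller than the wider of the gaps between pools of the same genotype, against 72.7% of all genes. The 95% interval from limma lay within 2-fold for 38 of 38 Rab genes and 93.7% of all genes, and within 1.5-fold for 34 of 38 Rab genes (89.5%) and 71.2% of all genes. The gaps between pools were like those of other genes, with medians of 0.11 for Rabs and 0.13 for all genes in USP8ff_CD4Cre, and of 0.16 and 0.15 in USP8ff.

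The same comparison was made by signal level. Among genes with a mean log2 signal of 0 or more, the median absolute difference was 0.062 for 25 Rab genes, against 0.10 for all genes, and groups did not overlap for 24% of the Rabs, against 42.4% of all genes. Below that level the median absolute difference was 0.046 for 13 Rab genes, against 0.15 for all genes, and groups did not overlap for 7.69% of the Rabs, against 37.7% of all genes. These are descriptions, and no test set the Rab genes against the rest.

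**Figure D4:**
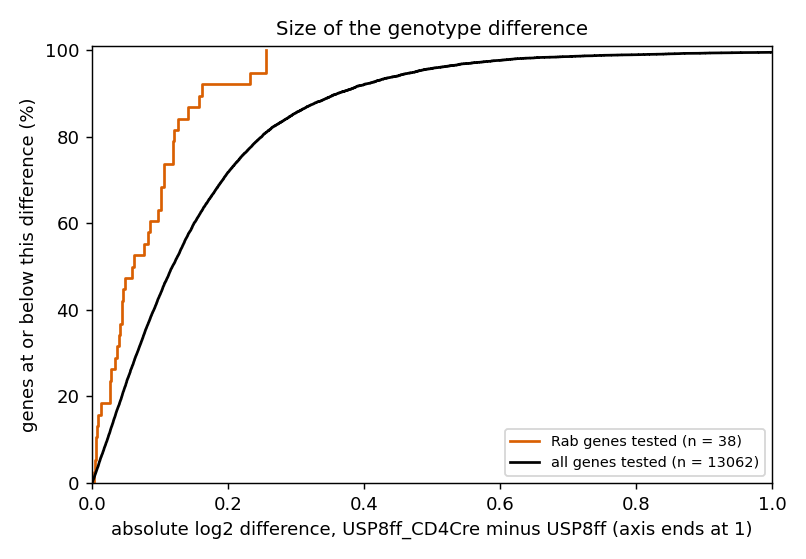
Cumulative share of genes in percent (vertical axis) by absolute log2 difference between USP8ff_CD4Cre and USP8ff (horizontal axis, ending at 1) for the 38 Rab genes and all 13062 genes tested. The Rab curve lies left of that of all genes, with medians of 0.060 and 0.12.

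Of 38 Rab genes, 24 had several kept probes and 14 had 1. In 13 of the 24 the probes had differences of both signs, and in 11 of the 24 they all had the same sign. Rab43 is among the 13 only through the probe kept through USP8ff_CD4Cre alone, from which no direction is read. Probes of different Rab genes shared runs of at most 14 bases (Rab9 and Rab11b), and 19 of the 112 Rab probes spanned more than 60 bases of genome. The position of each probe within coding sequence or untranslated regions is not analysed here.

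The promoters of many Rab genes held more CG dinucleotides, a feature that the naming rule did not use, than the median promoter, over a wide range of 3 to 40. Sequence for the 250 bases before the annotated start was available from RefSeq (GRCm38.p6) for 47 of 57 Rab genes. Kept and not kept Rab genes are each shown by an extreme, chosen after the counts were seen: Rab35, with 39 CG the highest of the genes tested, and Rab17, with 3 CG the lowest (equal to Rab42) of those not tested. The capitals mark CG dinucleotides, and the sequences are chr5:115631737-115631986 on the plus strand and chr1:90967668-90967917 on the minus strand of GRCm38.p6.
Rab35 promoter: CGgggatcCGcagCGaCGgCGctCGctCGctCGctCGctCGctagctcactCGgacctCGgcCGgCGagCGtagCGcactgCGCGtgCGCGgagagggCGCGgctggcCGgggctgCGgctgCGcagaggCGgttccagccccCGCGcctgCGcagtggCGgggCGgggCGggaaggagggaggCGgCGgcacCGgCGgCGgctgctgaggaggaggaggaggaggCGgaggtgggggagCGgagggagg
Rab17 promoter: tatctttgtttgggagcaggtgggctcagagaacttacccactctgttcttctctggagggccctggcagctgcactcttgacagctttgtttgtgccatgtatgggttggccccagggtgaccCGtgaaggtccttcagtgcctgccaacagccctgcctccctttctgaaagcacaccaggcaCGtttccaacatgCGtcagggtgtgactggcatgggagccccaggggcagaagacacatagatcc
The 34 tested Rab genes held a median of 18 CG (5 to 39) in this window and the 13 that were not tested a median of 11 (3 to 40), against a median of 6 over 27025 genes of the table. At least 18 CG were found in 55.9% of the tested Rab promoters, 30.8% of those not tested and 21.6% of all promoters, where 18 is the median of the tested Rab genes themselves, so that a large share of them reaches it by construction. By class the median was highest for ER and Golgi Rabs, at 23, then 20 for recycling endosome Rabs, 18 for early endosome Rabs, 16 for secretory granule and exocytosis Rabs, 13 for late endosome and lysosome Rabs and 9 for other Rabs, of which 22.2% held at least 18. No test set these promoters against others, and the 27025 genes were not limited to genes detected in these cells. Tested Rab genes and all genes thus differ in detection as well as in family. Rab6b had the most CG of all Rabs, at 40. The letters TATAAA, searched on both strands of the same window, were found in 1 tested Rab promoter (Rab3b, 2.94%) and 2 not tested (Rab42 and Rab39b, 15.4%), against 13.0% of all promoters. A match is a description of the sequence and not a site of binding.

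**Figure D5:**
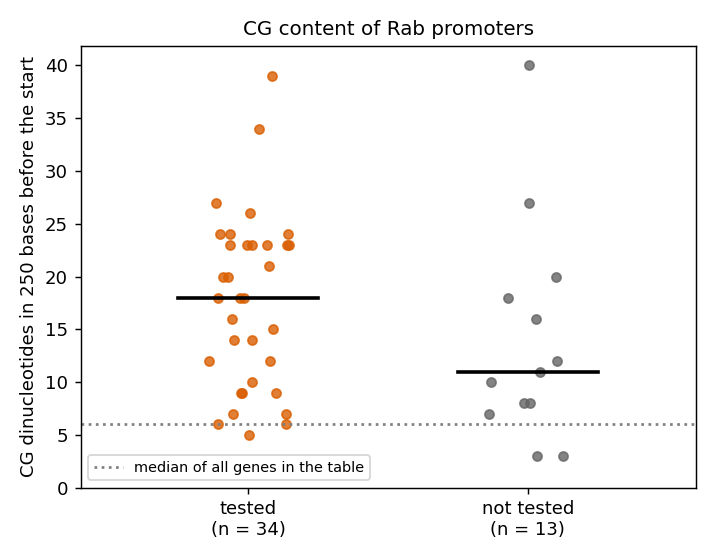
CG dinucleotides in the 250 bases before the start (vertical axis) of 34 tested and 13 not tested Rab genes, each point a gene, with medians of 18 and 11 as lines and the median of all genes, 6, as a dotted line. Both sets span a wide range and overlap.

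The genes that load, switch and read Rab proteins had median absolute differences of 0.12 to 0.14 by list, against 0.060 for the Rab genes, and none passed the test. All 8 prenylation and recycling factors were tested, with 5 above and 3 below 0 and a median of 0.015. Gdi2, which extracts Rabs from membranes, had log2 signals of 5.25 and 5.54 in USP8ff_CD4Cre pools, against 5.22 and 5.19 in USP8ff pools. Both USP8ff_CD4Cre pools were higher, with a difference of 0.19 ± 0.14 (unadjusted p of 0.221, in limma). Of the GTPase-activating proteins, which end Rab signalling, 28 of 35 were tested, with 15 above and 13 below 0, a median of 0.015 and 0 with an unadjusted p under 0.05. The smallest p in that list were those of Tbc1d14 at -0.27 ± 0.11 and Rabgap1l at -0.28 ± 0.12.

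Exchange factors, which load Rabs with GTP, had 11 of 32 tested genes above and 21 below 0, with a median of -0.080. An unadjusted p under 0.05 was found for 2 of 32, both lower, against 7.43% of all genes in either direction and 3.46% in that direction. Dennd1c, of a family that activates Rab35, had log2 signals of 3.84 and 3.63 in USP8ff_CD4Cre pools, against 4.09 and 4.15 in USP8ff pools. Both USP8ff_CD4Cre pools lay below both USP8ff pools, with a difference of -0.38 ± 0.12 (unadjusted p of 0.0256, adjusted p of 0.661, in limma). Dennd2d, the second of the list, differed by -0.45 ± 0.17 with an adjusted p of 0.671.

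Rab effectors, the proteins that bind active Rabs, had 14 of 38 tested genes above and 24 below 0, with a median of -0.078. Here 3 were lower and 1 higher at an unadjusted p under 0.05, against 3.46% and 3.97% of all genes. The 1 higher, Rph3al, was well above background on 0 USP8ff arrays and was kept through USP8ff_CD4Cre alone. Myo5b, a motor bound by Rab11, had log2 signals of -2.62 and -2.80 in USP8ff_CD4Cre pools, against -2.16 and -2.25 in USP8ff pools. The groups did not overlap, and the difference was -0.51 ± 0.12 (unadjusted p of 0.00782, adjusted p of 0.661, in limma). Sytl2, an effector of Rab27, differed by -0.49 ± 0.13 with an adjusted p of 0.661, at a dim signal below -2.9 on all 4 arrays.

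Per array 18535 to 20153 probes were well above background (45% to 48.9%), and 0 spots were saturated. Correlations across genes, which are not independent replicates, were 0.995 within USP8ff_CD4Cre, 0.993 within USP8ff and 0.991 to 0.996 between them. All 10 DP thymocyte markers were well above background on all 4 arrays, with levels (linear, the 75th percentile of the array being 1) that summed to 1728 and 1751 in USP8ff_CD4Cre, against 1637 and 1719 in USP8ff, although 7 of the 10 lay below 0, with Rag2 at -0.33. Macrophage and dendritic cell markers (7 of 14 well above background on all arrays, with Adgre1, H2-Aa, Fcgr3 and Cybb on none) summed to 2.97 and 3.07 in USP8ff_CD4Cre, against 3.97 and 4.45 in USP8ff. NK and innate T cell markers (4 of 10 on all arrays, with Gzmb, Klrk1, Ncr1 and Eomes on none) summed to 4.03 and 5.39 in USP8ff_CD4Cre, against 4.41 and 4.56 in USP8ff. The macrophage and dendritic cell sum was thus lower in both USP8ff_CD4Cre pools. The NK and innate T cell sum overlapped, although the groups overlapped for none of its 5 tested genes, 3 of them lower and 2 higher. The tested B cell genes Blnk and Cd79b differed by -0.75 and -0.078, both with overlapping pools. Erythroid markers summed to 0.285 and 0.732 in USP8ff_CD4Cre, against 0.282 and 0.328 in USP8ff, and thymic stroma markers to 0.538 and 0.615 in USP8ff_CD4Cre, against 0.599 and 0.596 in USP8ff. The thymic stroma sum overlapped, although groups did not overlap for any of its 3 tested genes, against 40.6% of all genes. Of these 3, 2 were higher and 1 lower, with differences from -0.47 to 0.32. Granulocyte and mast cell markers summed to 0.194 and 0.252 in USP8ff_CD4Cre, against 0.204 and 0.225 in USP8ff. Mature single-positive markers (5 of 8, with S1pr1 on none) summed to 107.6 and 118.9 in USP8ff_CD4Cre, against 98.7 and 107.3 in USP8ff. Klf2, the brightest of the list, makes up most of that linear sum and differed by 0.23. The other 6 of the 7 tested lay below 0, and the median of the 7 was -0.89. Groups did not overlap for any of the 7, against 40.6% of all genes. At an unadjusted p under 0.05 in limma 4 of the 7 were lower, against 3.46% of all genes. The part of other cells in the Rab values was not tested.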

How the data were processed

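Per the labels' protocols, RNA of sorted DP thymocytes (2 pools of 2 mice per genotype) was labelled with Cy3 from 500 ng and hybridised to 1-colour Agilent arrays. The deposited scanner files hold spot intensities on a linear scale, made with Feature Extraction 10.7.3.1 per the file headers and not normalized between arrays. From these, log2 processed signal was computed and centred per array on its 75th percentile (43379 spots, controls left out). Outlier spots were left out (17 of 41174 probes lost), spots of a probe were averaged, and 19038 probes (46.2%) that both arrays of a group read well above background were kept. The brightest kept probe stood for its gene. Genotypes were compared over 13062 genes with lmFit and eBayes of limma 3.58.1 (R 4.3.3), without a block, Benjamini-Hochberg adjusted, threshold 0.05, after a check on simulated data. The arrays share a slide per the file headers, so slide is no batch between groups.

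RefSeq accessions named 94 of the 112 Rab probes and the array design the others. Rab1, Rab6 and Rab7l1 of the design are given as Rab1a, Rab6a and Rab29. A probe that RefSeq names Rab7b has another design name and is outside the rule. Positions are mm9. Full values are given for the 2 Rab genes with the smallest p per class, those with probes of both signs, and those above background in 1 group only (25 genes), and for the 2 smallest p per regulator list, of which 1 gene is not reported here. Rab2b, Rab4b, Rab33a and Rab6b were chosen after their values were seen, as were the gaps between pools in the plots. Members, classes and lists were chosen with earlier results of these data known.

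The authors' deposited table of fold changes and p-values lists 78 probes, of which 0 are Rab probes. Another deposited table, with 4 columns of values that no label names, was left aside. Alternatives were median and quantile scaling, normexp background (offset 50), an eBayes trend, a replicate block, outlier spots kept in, no filter or a filter on every array, a mean over a gene's probes or each probe by itself, and leaving out each array. Array number limits the precision. Plots used Python 3.11.15 and matplotlib 3.10.9.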

Additional observations from a re-analysis of the deposited data

How the results depend on the processing

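No gene and no Rab gene had an adjusted p under 0.05 under any of the 14 alternatives; 970 genes and 0 Rab genes had an unadjusted p under 0.05 in limma. Among the alternatives that kept every array, the count of Rab genes at that unadjusted p was 1 with every kept probe tested (Rab2b) and 1 with the eBayes trend (Rab1a). That count is not given for the fits with an array left out, where a group rests on 1 array. Without USP8ff replicate 2, Rab6b entered the fit with an absolute difference of 6.46. That value restates its signal on USP8ff replicate 1, then the only USP8ff array. The count of non-overlapping Rab genes, whose alternatives were added after seeing the data, was 17 of 70 with every kept probe and 19 to 26 with an array left out, against 7. The median of the tested Rab genes was 0.030 with every probe, 0.0044 to 0.027 with an array left out, -0.0029 with quantile normalization and -0.0026 with normexp background. With an array left out the class medians ran from -0.041 to 0.033 (early endosome), 0.0044 to 0.038 (recycling), -0.065 to 0.023 (late endosome and lysosome), -0.023 to 0.038 (ER and Golgi) and -0.067 to 0.097 (secretory granule and exocytosis). The recycling median was -0.066 under quantile normalization, 0.12 with no filter, 0.050 with the mean of probes and 0.033 with every probe. The late endosome and lysosome median was -0.086 with no filter, and the ER and Golgi median was 0.053 with normexp background and 0.053 with the mean of probes. The causes of these shifts were not tested. Of 348 values recomputed for the 25 Rab genes given in full, 331 moved by less than 1 SD (between pools within groups) and 17 by more. Much of this count was fixed in advance. The eBayes trend, the replicate block and each probe by itself leave a probe's difference unchanged. Leaving out an array cannot move it by more than that SD. The count is therefore no measure of stability for those settings. Only 8 of the 25 kept their sign in every setting (Rab11a, Rab19, Rab1a, Rab22a, Rab27a, Rab33b, Rab40c and Rab5c). With the replicate number as a block, 0 genes had an adjusted p under 0.05, 1338 had an unadjusted p under 0.05 and 0 of them were Rab genes, and the smallest adjusted p was 0.0908, against 0.292 without the block. The deviations of same-numbered arrays correlated at 0.32. With only 2 pairs, and no label that a number marks a shared litter or day, pairing was not taken as given. Limits hold throughout: 2 pools per group, and Rab genes near background (Rab20, Rab3b), whose differences rest on signals close to the lowest measured.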
